A study of Mus musculus with 5 samples.

Results

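RNA precipitated by anti-HA was compared with RNA precipitated by control IgG in hippocampus of the same knock-in mice. This comparison holds 4 of the 5 libraries of the series: 2 anti-HA and 2 IgG libraries, 1 of each from knock-in mouse 1 and from knock-in mouse 2. All animals were C57BL/6. The labels call these mice knock-in without naming the allele, and the series concerns RNAs bound by CYFIP1. Hippocampal lysate received mouse anti-HA from Covance or mouse control IgG, and complexes were collected on protein G beads. The labels give no age and no other agent. The remaining library, anti-HA from a wild-type mouse, serves below only for a few values set beside these.

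CYFIP1 is a subunit of the WAVE regulatory complex, which activates the Arp2/3 complex to build branched actin networks at the cell edge and in dendritic spines. It also binds FMRP, the RNA-binding protein lost in fragile X syndrome, and the cap-binding protein eIF4E, and in that setting it is known as a repressor of translation at synapses. An RNA immunoprecipitation recovers RNA attached to the tagged protein directly or through partners. Proteins of the NHS family (named after Nance-Horan syndrome) bind the WAVE complex, and spectrins form the membrane skeleton below the plasma membrane.

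The deposited lists hold only regions that the authors called on these same libraries, with the reads of both libraries of a mouse in each region. The sources used here do not state the calling rule, and some regions held fewer HA than IgG reads. The list of mouse 1 held 4191 regions with 99575 HA and 25747 IgG reads, and that of mouse 2 held 1920 regions with 64055 and 31872. Reads outside these regions are not in the lists, so how deeply each library was sequenced is not known. A gene's fold is its HA reads over its IgG reads, summed over the regions on the gene, divided by the median region ratio of the list (2.89 in mouse 1 and 0.947 in mouse 2, among regions with at least 20 reads). Where IgG had 0 reads, 3 counts were put in its place for that gene and list, and the fold is a lower bound. Ranges in brackets are 95% counting intervals of 1 library pair; they cover counting error only, since PCR reads are not independent molecules. Dividing by the pooled ratio of a list would lower log2 folds by 0.42 in mouse 1 and by 1.09 in mouse 2, so a gene near 1-fold has no fixed side. All coordinates are on mm10.

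The libraries of a kind did not differ alike. Over 96 regions with identical coordinates in both lists, the HA libraries held 13556 and 13533 reads and differed by no more than sampling noise (chi-square p = 0.583). The IgG libraries held 1294 and 2387 reads in 58 of these regions and did differ (chi-square p = 4.92e-15). Over 191 regions of all the lists the HA libraries differed (chi-square p = 4.55e-07), with 4115 and 5288 reads on Malat1, and without Malat1 p was 0.129. They were kept as 2 samples, as labelled. Counts with the HA pair averaged into 1 sample are given beside the main ones, and p-values may measure technical spread only.

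Nhsl1 mRNA gave the regions with the strongest HA signal that had the same limits in both mice, and they are shown here as sequence. The first is the coding part of the first exon of a long Nhsl1 transcript in GENCODE M21, at chr10:18318985-18319276 on the plus strand, with the start codon in capitals. The second is a stretch of Nhsl1 coding sequence at chr10:18523791-18523910, from the region with the most HA reads on that gene.

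Nhsl1 first coding exon: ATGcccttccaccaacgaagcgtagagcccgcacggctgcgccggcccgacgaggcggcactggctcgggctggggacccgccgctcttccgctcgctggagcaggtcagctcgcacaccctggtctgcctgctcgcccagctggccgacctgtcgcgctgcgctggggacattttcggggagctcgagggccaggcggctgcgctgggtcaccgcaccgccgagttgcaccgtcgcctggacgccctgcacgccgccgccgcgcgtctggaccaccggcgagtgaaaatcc

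Nhsl1 coding stretch: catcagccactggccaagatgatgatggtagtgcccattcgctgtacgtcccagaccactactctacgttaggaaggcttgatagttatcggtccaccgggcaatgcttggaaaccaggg

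The region over the first exon held 118 HA reads in mouse 1 and 117 in mouse 2, with 0 IgG reads in both. The region around the Nhsl1 stretch ran from 18523681 to 18527040 and held 1273 HA against 2 IgG reads in mouse 1 and 1380 against 17 in mouse 2. Its log2 difference was 6.92 (SE 0.42, limma adjusted p = 4.03e-05). In both regions, picked for their strong HA signal, the HA libraries lay far above both IgG libraries. The share of listed regions that did so was not counted.

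Both lists held 797 genes in common, and 390 of them, at 272 separate places in the genome, had at least 20 reads in each list and were tested. HA reads were higher than IgG reads for 21 genes at 13 places (limma on log2 reads, adjusted p below 0.05), which is 5.38% of the genes tested, and 28 genes were higher at an unadjusted p below 0.05. With the HA pair averaged, 16 of the 21 still passed and no other gene did. Without 1 of the IgG libraries the number fell to 13 (mouse 1 left out) and 9 (mouse 2 left out), of which 11 and 9 were among the 21. The places included those of Nhs, Nhsl1, Nhsl2, Cyfip1, C77080, Sptan1, Dcaf10, Sptbn1, Mprip, Srcin1, Ppp1r9b and D430019H16Rik, each the gene with the most HA reads at its place. Other genes of the 21 lie in reads of these: Rgag4 in those of Nhsl2, Gm15202 of Nhs, Yars of C77080, Mir6997 of Sptan1, Gm8098 of Sptbn1, and 1700007J10Rik and Gm12264 of Mprip. The lists carry no strand, so overlapping genes cannot be told apart. Because the authors called the regions on these same libraries, the gene calls are not an independent test of binding.

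**Figure D1:**
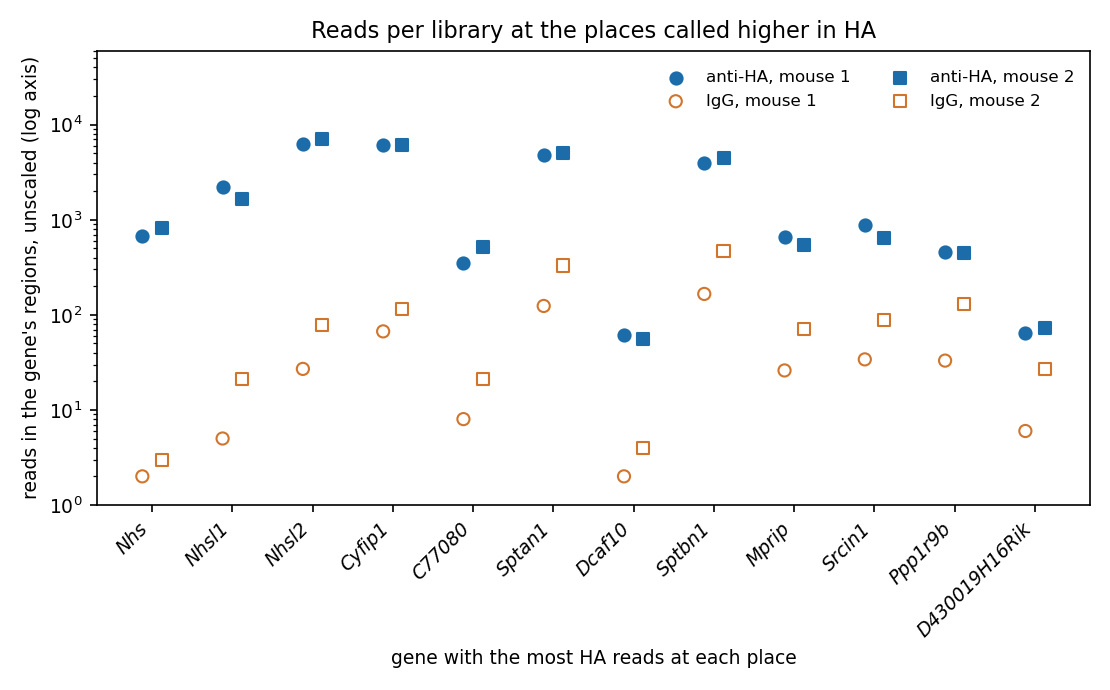
Reads in the regions of each gene (log axis, unscaled) in the 4 libraries, for the genes described here that have the most HA reads at a place where HA was higher. Filled blue symbols are anti-HA and open orange symbols IgG, circles mouse 1 and squares mouse 2; at every place shown both HA libraries lie above both IgG libraries, and IgG of mouse 2 lies above IgG of mouse 1.

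Cyfip1 mRNA, which encodes the protein the series is about, is on chromosome 7 from 55841745 to 55932602. It held 6101 HA against 67 IgG reads in mouse 1 and 6186 against 115 in mouse 2. Both HA values were close together and both far above IgG. The fold was 31.5 (24.7 to 40.6) in mouse 1 and 56.8 (47.3 to 68.9) in mouse 2, and the log2 difference 5.39 (SE 0.39, limma adjusted p = 0.00318). In mouse 1 these reads came from 1 region of 62.0 kb, and in mouse 2 from 26 regions of 8.20 kb in all that touched all 30 coding exons. In mouse 2 the fold was 44.5, 66.1 and 64.4 over the first, middle and last of 3 equal parts of the coding sequence.

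Nhs, Nhsl1 and Nhsl2 of the NHS family, with Rgag4 in the reads of Nhsl2, gave the highest folds. Of 5 family genes, 4 had regions, and all 4 were higher in HA. Nhs (chromosome X, 161833296 to 162159730) held 676 HA against 2 IgG reads in mouse 1 and 827 against 3 in mouse 2. Its fold was 117 (32.2 to 966) and 291 (99.3 to 1415), the wide ranges reflecting the few IgG reads, and its log2 difference was 7.26 (SE 0.46, limma adjusted p = 0.00225). Nhsl1 (chromosome 10, 18318985 to 18533892) held 2230 HA against 5 IgG reads and then 1672 against 21. That is 154-fold (65.9 to 475) and 84.1-fold (54.8 to 136), and the log2 difference was 6.75 (SE 0.34, limma adjusted p = 0.00106). Nhsl2 (chromosome X, 101849385 to 102092055) had more HA reads than any other gene tested, 6278 and 7002, against 27 and 78 in IgG. Its fold was 80.3 (55.2 to 122.0) and 94.8 (75.9 to 120.1). C77080, the mouse gene of another NHS-like protein (chromosome 4, 129219578 to 129261404), held 348 HA against 8 IgG reads and then 515 against 21. That is 15.03-fold (7.54 to 35.1) and 25.9-fold (16.8 to 42.2), below the other members in both mice, and its log2 difference was 4.24 (SE 0.35, limma adjusted p = 0.00342). Most C77080 reads lie in a region that also touches the end of Yars, a tyrosyl-tRNA synthetase gene. Nhs, Nhsl1 and Nhsl2, like Cyfip1, passed in all 14 alternative fits, while C77080 did not pass when either IgG library was left out (limma adjusted p up to 0.123).

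Spectrin mRNAs were also higher in HA. Spectrins are tetramers of alpha and beta chains, and Sptan1 encodes the alpha chain of neurons while Sptbn1 encodes a beta chain. Sptan1 (chromosome 2, 29965560 to 30031451) held 4755 HA against 124 IgG reads and then 5046 against 330. Its fold was 13.2 (11.1 to 15.96) and 16.2 (14.4 to 18.1), and the log2 difference was 3.87 (SE 0.29, limma adjusted p = 0.00318). Sptbn1 (chromosome 11, 30099395 to 30268175) held 3954 HA against 166 IgG reads and then 4484 against 466. That is 8.23-fold (7.04 to 9.67) and 10.2-fold (9.24 to 11.2), below Sptan1 in both mice, and its log2 difference was 3.19 (SE 0.28, limma adjusted p = 0.00459). With the HA pair averaged, Sptan1 and Sptbn1 did not pass (limma adjusted p = 0.0731 and 0.178), though their log2 differences did not change. Sptan1 also did not pass without the HA library of mouse 2, nor Sptbn1 without either HA library.

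Listed regions of the spectrin mRNAs lay in each of 3 equal parts of the coding sequence, with gaps. In mouse 1 no listed Sptbn1 region was centred between 1.72 and 3.19 kb from the start codon. Mouse 2 had 631 HA reads in a region centred at 2.30 kb. For Sptan1 mouse 1 had none between 3.84 and 4.62 kb, where mouse 2 had 318 HA reads at 4.27 kb. The regions were called on these same libraries, so an excess in them is not an independent test. Sptan1 regions touched 51 and 54 of its 57 coding exons in mice 1 and 2. Over 3 equal parts of the Sptan1 coding sequence the fold was 11.98, 13.3 and 15.1 in mouse 1 and 16.04, 15.6 and 17.3 in mouse 2. For Sptbn1 the parts, from start to stop codon, gave 7.70, 8.98 and 7.88 in mouse 1 and 9.72, 10.01 and 10.8 in mouse 2. The lowest of these values was 7.70. Of regions with at least 20 reads, all 31 and 31 of Sptbn1 were at 4-fold or more, and 35 of 36 and 38 of 38 of Sptan1. The share at 4-fold among all listed regions was not counted, and by the scale their median is 1-fold. With the spectrin regions included, the median on chromosome 2 was 11.3-fold and 14.6-fold in mice 1 and 2. On chromosome 11 it was 7.55-fold and 8.52-fold.

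**Figure D2:**
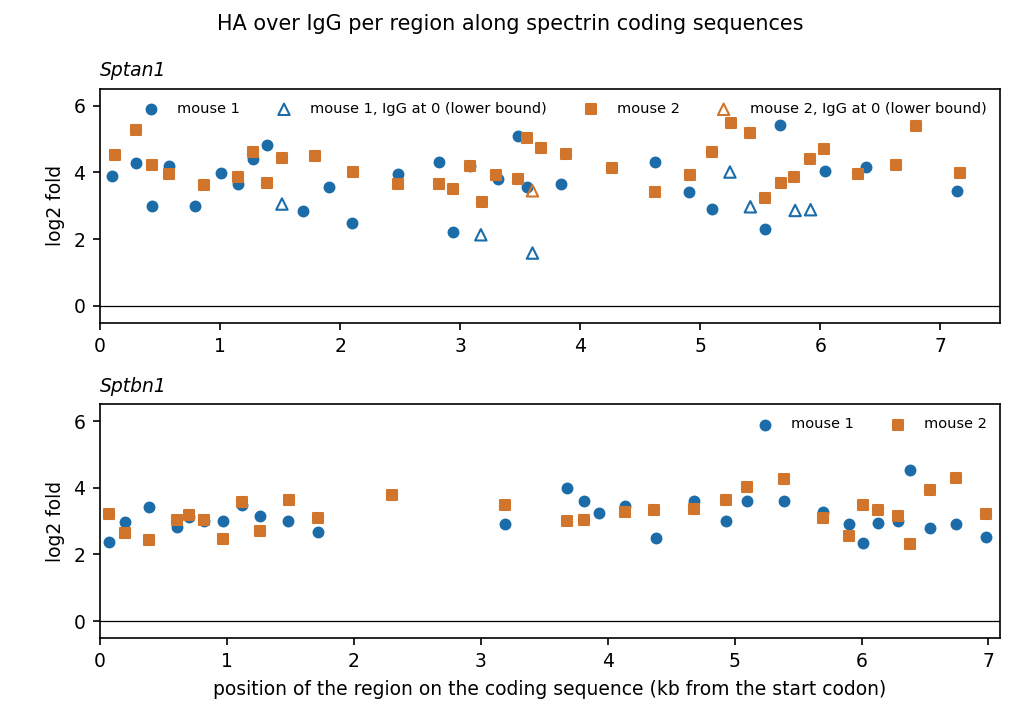
Log2 fold of HA over IgG for each region that touches coding sequence, by the position of the region in kb from the start codon, for Sptan1 and Sptbn1 (blue circles mouse 1, orange squares mouse 2, open triangles lower bounds where IgG had 0 reads). All points lie above 0. Only listed regions of genes called higher are plotted, and the authors called these regions on the same libraries. Stretches without a listed region and sequence outside the coding part are not shown.

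Mprip and Srcin1 were higher as well. Mprip, whose protein targets myosin phosphatase to actin stress fibres, held 656 HA against 26 IgG reads and then 547 against 71 (chromosome 11, 59661305 to 59780860). Its fold was 8.72 (5.895 to 13.4) and 8.14 (6.35 to 10.6), and the log2 difference was 3.06 (SE 0.31, limma adjusted p = 0.00634). Srcin1, an adaptor that inhibits Src kinase at synapses, held 888 HA against 34 IgG reads and then 643 against 88 (chromosome 11, 97509340 to 97576186). That is 9.02-fold (6.41 to 13.1) and 7.72-fold (6.17 to 9.76), and its log2 difference was 3.05 (SE 0.34, limma adjusted p = 0.0083). Both lost the call when either IgG library was left out (limma adjusted p up to 0.122 and 0.131). Mprip and Srcin1 were picked because they were called higher, and both HA counts of each lay above both IgG counts. The share of all tested genes with such separation was not counted.

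Ppp1r9b encodes spinophilin, a spine scaffold for protein phosphatase 1. It held 456 HA against 33 IgG reads in mouse 1 and 446 against 130 in mouse 2 (4.77-fold and 3.62-fold), so nearly equal HA reads stood over unequal IgG reads. Its log2 difference was 2.04 (SE 0.32, limma adjusted p = 0.0279), which became 0.0505 on the pooled scale, and it did not pass when any 1 library was left out. Dcaf10, a substrate receptor of a ubiquitin ligase, rested on few reads, 62 HA against 2 IgG and then 56 against 4, or 10.7-fold (2.84 to 90.4) and 14.8-fold (5.46 to 56.2). Most of these were in a region of 250 bases, chr4:45346501-45346750, with 55 HA reads and 1 IgG read and then 51 and 3. Dcaf10 did not pass without the IgG library of mouse 2 (limma adjusted p = 0.0943). D430019H16Rik was the only gene on chromosome 12 or 15 that was higher, with 65 HA against 6 IgG reads and then 72 against 27, and its call was lost in 7 of 13 alternative fits.

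By size alone, 19 genes at 11 places reached 4-fold in both mice, 4.87% of those tested, and all 19 are among the 21. The count was 21 in mouse 1 (5.38%) and 23 in mouse 2 (5.9%). None of the 390 genes was at 0.25-fold or below in both mice. When only regions lying inside the gene were counted, 12 genes reached 4-fold in both.

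**Figure D3:**
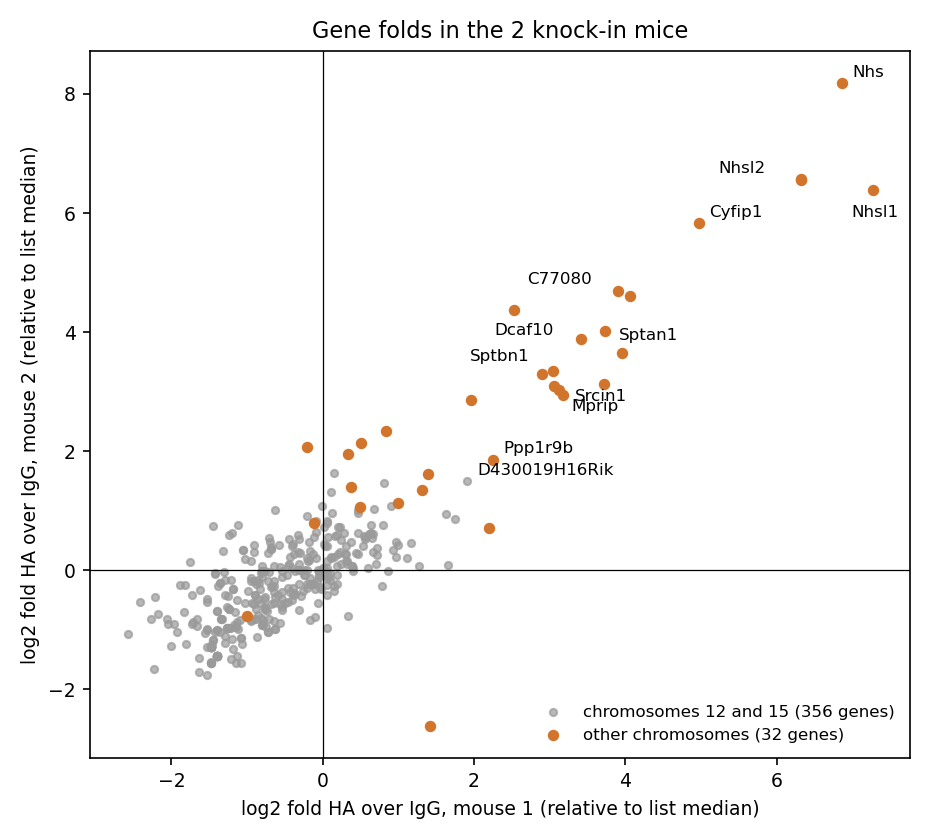
Log2 fold of HA over IgG relative to the list median in mouse 1 (x axis) and mouse 2 (y axis) for the genes tested and reported here, grey for chromosomes 12 and 15 and orange for the others, with the genes described at the called places named. The named genes, picked because HA was higher, stretch along the diagonal. All but D430019H16Rik lie off chromosomes 12 and 15, whose genes form a cloud centred below 0 (median folds 0.622 and 0.839 in mice 1 and 2).

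The place of a gene in the genome went with its fold. Of the 390 genes, 356 lie on chromosomes 12 and 15, with median folds of 0.622 and 0.839, and 1 was higher. The 34 on other chromosomes had medians of 7.84 and 8.35, and 20 of them were higher. The lists themselves were uneven in the same way: 30.6% of the regions of mouse 1 and 85.7% of those of mouse 2 were on chromosomes 12 and 15, and chromosomes 3, 9, 14 and 17 had none in either. Each list used 1 bin size per chromosome. The part that region calling had in these folds was not tested. A gene without a region is unmeasured, not absent from the RNA.

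**Figure D4:**
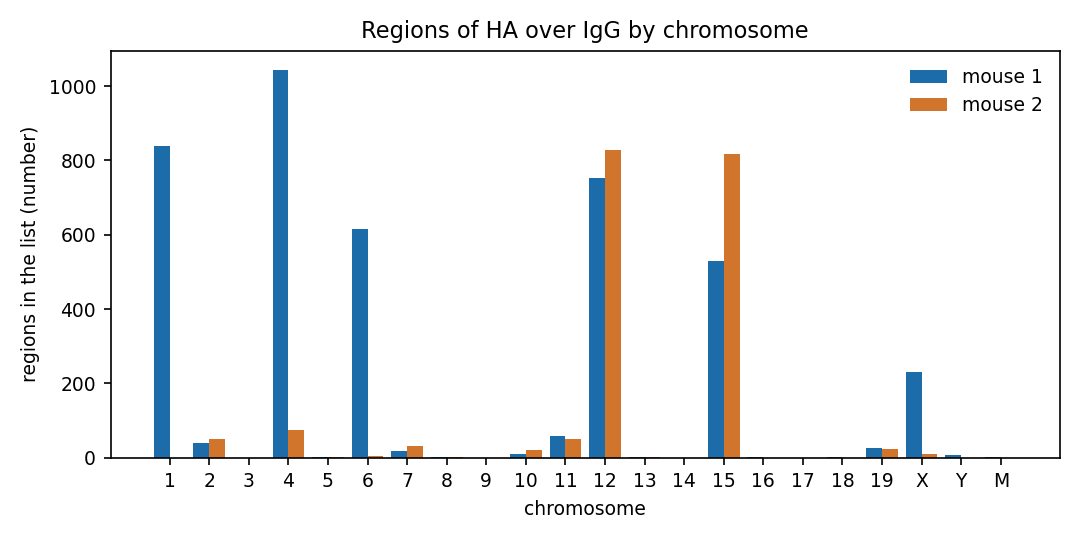
Number of regions of HA over IgG on each chromosome in the list of mouse 1 (blue) and of mouse 2 (orange). Mouse 1 has 1043 regions on chromosome 4 and 838 on chromosome 1 where mouse 2 has 75 and 0, while chromosomes 12 and 15 are full in both.

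Regions with identical limits in both mice give a comparison free of differing region limits. Of 108 such regions 80 had at least 20 reads in both lists, and 75 of them, 93.8%, were higher in HA, with 0 lower (limma, adjusted p below 0.05). The authors called these regions on the same libraries in both lists, so the share is not an independent test. The same test gave 73 with the mouse as a block, 70 with the HA pair averaged and 68 on the pooled scale. When overlapping regions of both lists were merged, 138 of 359 were higher and 48 lower. Of the 80 regions 27 lay on Sptbn1 alone and all 27 were higher, at log2 differences from 2.61 to 3.85. In addition, 1 region on both Sptbn1 and Gm8098 was higher, at 3.22. All 4 regions of Nhsl1 were higher as well, 2 of them with 0 IgG reads in both mice, and so were all 4 of Srcin1 (2.69 to 2.99). Macf1, a giant linker of actin and microtubules, had 5 regions and all 5 were higher, from 1.02 to 2.62, of which 1 did not pass with the mouse as a block (limma adjusted p = 0.0933). The regions not higher lay on Ankrd33b, Cdk8, Oxct1 and Poldip3 and in 1 place off genes.

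Among genes listed in 1 mouse only, 14 of 673 in mouse 1 (2.08%) and 3 of 166 in mouse 2 (1.81%) reached 4-fold.

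Several genes of spines and the actin network lay above the median of both lists without passing. As both libraries of a number come from 1 mouse, a fit with the mouse as a block was also made, and it did call the following 5. Shank2, a scaffold of the postsynaptic density, held 1239 HA against 110 IgG reads and then 511 against 74, which is 3.89-fold and 7.29-fold (limma adjusted p = 0.145, and 0.0199 with the block). Its regions covered 32400 bases in mouse 1 and 2200 in mouse 2. Macf1 held 1319 HA against 174 IgG reads and then 484 against 166, or 2.62-fold and 3.08-fold (limma adjusted p = 0.252, and 0.031 with the block). Its regions covered 81750 and 14250 bases. Without the block such unequal regions enter the spread between mice, and how far this set the p-values was not tested. Agap2, a GTPase-activating protein that binds phosphoinositide 3-kinase, was 2.49-fold and 2.55-fold (limma adjusted p = 0.285, and 0.0183 with the block). Wasf1 encodes WAVE1, the member of the WAVE complex that is abundant in brain, and held 69 HA against 12 IgG reads and then 95 against 46. That is 1.99-fold (1.07 to 4.03) and 2.18-fold (1.52 to 3.17), with limma adjusted p = 0.112, and 0.0232 with the block. Myh9, a heavy chain of nonmuscle myosin, was 3.35-fold and 1.81-fold (limma adjusted p = 0.0853, and 0.0458 with the block). On the pooled scale with the block Shank2 and Macf1 still passed, while Agap2, Wasf1 and Myh9 did not, and without the block the Wasf1 adjusted p from limma was 0.633 and that of Macf1 0.271. Over wild-type HA, relative to the median of those lists and summed over their own regions, Macf1 was 0.220-fold and 0.178-fold, Myh9 0.0704-fold and 0.0471-fold, and Agap2 0.556-fold and 0.455-fold. Shank2 was 2.89-fold and 2.32-fold and Wasf1 3.26-fold and 2.26-fold. In all, 29 of the 390 genes tested were higher in the blocked fit, the 21 and 8 more, of which Akap6, Cbx5 and Pcnx are the rest. The same fit called 95 genes lower.

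Gene lists by function are described by counts and medians beside those of all genes with at least 20 reads in a list, which were 0.839-fold over 1094 genes in mouse 1 and 0.822-fold over 716 in mouse 2; of all 390 genes tested 5.38% were higher. Few values were at hand for WAVE complex and Arp2/3 genes: 8 of 23 had a region, 2 could be tested and Cyfip1 alone was higher. Wasf2 held 29 HA against 5 IgG reads in mouse 1 (2.00-fold, 0.767 to 6.63), and Actr3, a core subunit of Arp2/3, 39 and 18 (0.749-fold, 0.418 to 1.39). Among 32 actomyosin and actin-bundling genes 4 were tested and Mprip was higher. Rock2, a kinase that activates myosin, was 0.578-fold and 0.560-fold and Actn1, an actinin, 0.599-fold and 0.625-fold (limma adjusted p = 0.164 and 0.14). Both were called lower with the mouse as a block (limma adjusted p = 0.0334 and 0.0463) and on the pooled scale (limma adjusted p = 0.0207 and 0.0242). With the median ratio of the tested genes as the scale neither was called (limma adjusted p = 0.433 and 0.533). Spine signalling genes had medians of 2.66 (8 genes) and 2.55 (5 genes), with Srcin1 and Ppp1r9b higher among 5 tested. Of the NMDA receptor and postsynaptic scaffold list, 10 of 28 genes had a region, and the medians were 1.29 (5 genes) and 2.97 (5 genes). None of its 3 genes tested was higher (limma, 0 at adjusted p below 0.05, Shank2 at unadjusted p = 0.0398). Shank1 was listed in mouse 2 only, with 633 HA and 225 IgG reads (2.97-fold, 2.55 to 3.48).

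FMRP target mRNAs, a list written from general knowledge, had medians of 1.80 (15 genes) and 2.81 (16 genes). Of its 50 genes 24 had a region and 10 could be tested. The 4 higher were Sptan1, Sptbn1, Srcin1 and Ppp1r9b, all off chromosomes 12 and 15, where 20 of the 34 genes tested were higher. Translation regulators lay near the median of the lists. Ago2, the slicer of microRNA silencing, was 1.25-fold and 1.08-fold, Tnrc6b, its partner, 1.08-fold and 1.17-fold, and Pum2, a repressor that binds 3' UTRs, 1.22-fold and 1.55-fold, none past the test. Presynaptic genes had medians of 0.957 (6 genes) and 1.09 (2 genes) in mice 1 and 2. Ion channels and pumps had medians of 1.10 (5 genes) and 1.03 (2 genes).

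**Figure D5:**
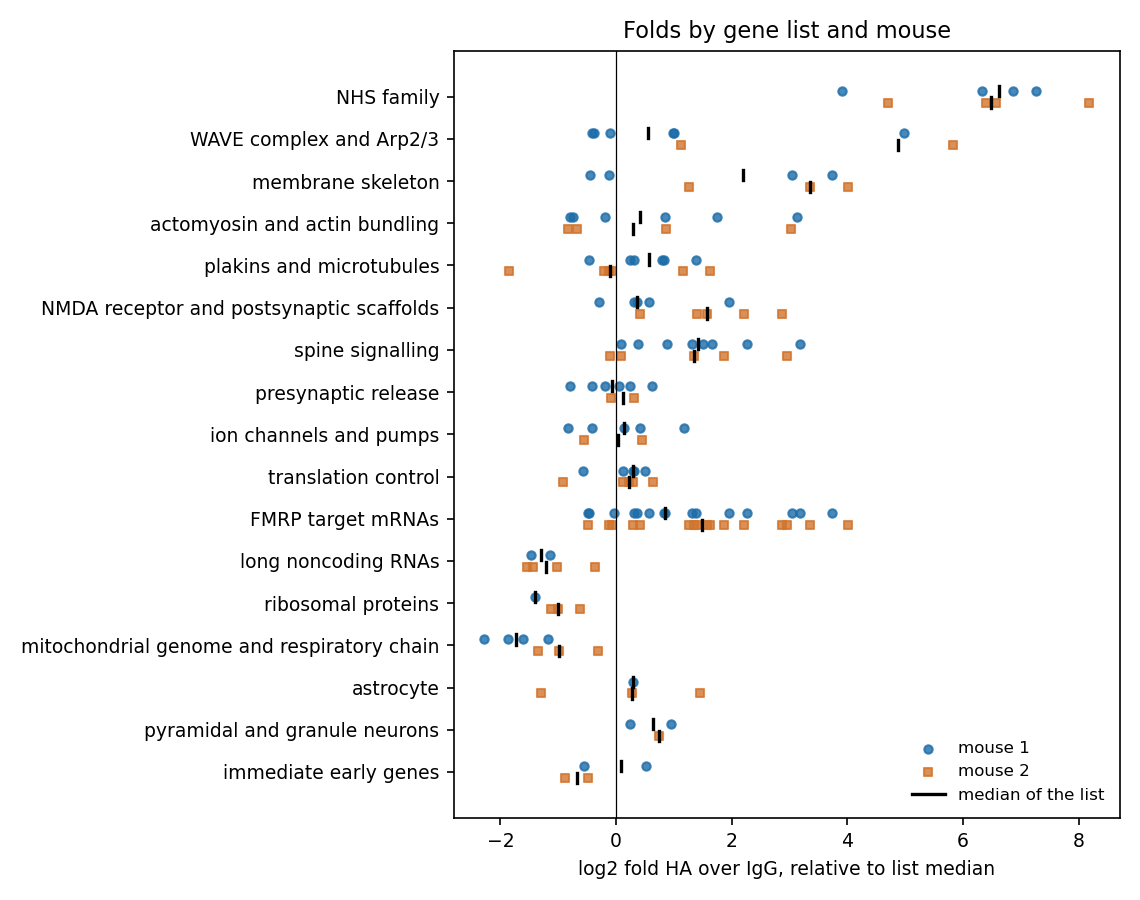
Log2 fold of HA over IgG relative to the list median for members of each gene list with at least 20 reads, blue circles mouse 1 and orange squares mouse 2, with a black bar at the median of the members plotted and a line at 0 (the list median). Of the 4 NHS family genes 3 lie at the far right in both mice, and long noncoding RNAs, ribosomal protein mRNAs and mitochondrial transcripts lie left of 0 in each mouse in which they are plotted.

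Long noncoding RNAs, ribosomal protein mRNAs and mitochondrial transcripts lay at the low end. Rian, a noncoding RNA of the imprinted Dlk1-Meg3 locus on chromosome 12, held 119 HA against 114 IgG reads in mouse 1 and 173 against 529 in mouse 2. Its fold was 0.361 (0.277 to 0.470) and 0.345 (0.289 to 0.411), at limma adjusted p = 0.0824, or 0.0172 in the blocked fit. Mirg, the microRNA host gene of that locus, was 0.455-fold and 0.368-fold (limma adjusted p = 0.0538, blocked 0.0183). Rpl8, a protein of the large ribosomal subunit, was 0.378-fold and 0.497-fold (limma adjusted p = 0.14, blocked 0.031). The mitochondrial ribosomal RNA mt-Rnr2 held 907 HA against 1520 IgG reads in mouse 1 (0.206-fold, 0.190 to 0.224) and had no region in mouse 2. No member of these 3 lists with at least 20 reads was above the list median in either mouse, but they number only 1 to 4 per list and mouse, and of all genes with at least 20 reads 39.3% and 35.2% were above it. On the pooled scale the adjusted p from limma was 0.0117 for Rian, 0.00856 for Mirg and 0.00827 for Rpl8. With the median ratio of the tested genes as the scale it was 0.204, 0.170 and 0.238. Of the 390 genes tested, 171 were lower on the pooled scale and 95 in the blocked fit. Tested genes on chromosomes 12 and 15, where Rian, Mirg and Rpl8 lie, had median folds of 0.622 and 0.839. The unscaled ratio of Rian in mouse 1 was 1.04.

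Relative to the list median, the ratio of HA to IgG reads was lower for 17 genes (limma, adjusted p below 0.05), 4.36% of those tested, with 91 lower at an unadjusted p below 0.05; unscaled, HA reads were not below IgG reads in mouse 1 for most of them. All 17 lie at 3 places on chromosome 12. Rbm25, a splicing factor, held 29 HA against 31 IgG reads and then 39 against 114 (0.323-fold and 0.361-fold, limma adjusted p = 0.0447). Nemf, a factor of ribosome quality control, and the neighbouring Klhdc2 share a place, with Nemf at 0.345-fold and 0.411-fold. The remaining 14 genes are microRNA genes and a small RNA gene in 1 region of the Mirg locus, with 22 HA against 20 IgG reads and then 23 against 66. The number of lower genes followed the scale: it was 0 when the scale was the median ratio of the tested genes or the median-of-ratios size factors, 171 with the pooled ratio, 95 with the mouse as a block, 0 with the HA pair averaged and at most 3 when 1 library was left out. Srsf5, a splicing factor, had the lowest fold by the larger of its values, 0.214 and 0.317, and was not called (limma adjusted p = 0.145, blocked 0.0156).

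Markers of cell types were sparse in the lists. Of 12 astrocyte markers 4 had a region, and Slc1a2, the main glutamate transporter of astrocytes, held 1065 HA against 410 IgG reads in mouse 2 (2.74-fold, 2.45 to 3.08) and had none in mouse 1. Ntsr2, a receptor of astrocytes, held 48 HA against 125 IgG reads in mouse 2 (0.406-fold, 0.285 to 0.570), and Slc1a3, another glutamate transporter, was 1.23-fold and 1.21-fold. Of 14 pyramidal and granule neuron markers 4 had a region, with Bcl11b at 1.17-fold and 1.66-fold and Prox1, a granule cell factor, at 1.93-fold in mouse 1. Of 12 interneuron, 13 oligodendrocyte, 11 microglia and 8 choroid plexus markers 1 each had a region, and of 11 endothelial and blood markers 0. The labelled tissue can be checked by these lists only in part, since they hold called regions alone.

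Beside the wild-type library, 7 of the 21 genes had a region in the lists of knock-in HA over wild-type HA of both mice. Relative to the median of those lists, 6 of the 7 in mouse 1 and 4 in mouse 2 were at 4-fold or more over wild type. The share of all genes at 4-fold in those lists was not counted. C77080 and Yars share reads, so they are not separate. D430019H16Rik was 0.822-fold and 0.748-fold, and Dcaf10 8.36-fold and 1.07-fold. Nhsl2 rested on 45 reads against 1 in mouse 1 and 5 against 0 in mouse 2. The rest of the 21, Nhs, Sptan1, Sptbn1, Mprip, Srcin1 and Ppp1r9b among them, had no region there and no wild-type value.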

How the data were processed

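Per the labels, RNA was immunoprecipitated from hippocampus with anti-HA or IgG, the NEBNext Ultra kit was used for libraries, and reads were single-end. TopHat and TopHat2 and the builds GRCm38 and mm10 are named in the submitters' processing notes. Per the file headers, rtracklayer 1.28.9 wrote the region lists; no source used here names the region caller. The deposited lists keep, per region, other values inside an attribute field, namely unscaled numbers of HA and control reads, which were read from there.

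Unique regions were summed per gene where the deposited annotation put them on the gene, and ratios were divided by the list's median ratio. The planned count test was not used because the values are not a column of counts. limma 3.58.1 in R 4.3.3 was fitted with a trend in the spread to log2(reads + 0.5), for 390 genes or 80 identical regions, with 2 HA against 2 IgG libraries, no block, and Benjamini-Hochberg adjustment at 0.05. HA libraries were set level by their reads in identical regions (13593 and 13574), and each IgG library by its list's median ratio. The fit was tested on simulated data with the same spread in all libraries. The HA and IgG pairs here differ in spread, so that test does not vouch for these p-values. The labels number the mouse of each library, so same-numbered libraries pair, and the correlation of HA and IgG pair differences over identical regions was -0.04. Genes were placed with GENCODE M21, in which 378 of 390 tested symbols were found; sequences come from its transcripts. Named genes were Cyfip1, the called or highest places, the 5 lowest, the 5 with most HA reads and up to 4 members per gene list; those with regions in 1 mouse and blocked calls were chosen after their values were seen. The gene lists and the comparison were chosen with earlier results of these data known. Some results are not reported here. Alternatives are given in the closing section.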

Additional observations from a re-analysis of the deposited data

Results flagged for a closer look

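A region off genes in the deposited annotation carried HA reads in both mice and no IgG read. It lies at chr10:18318721-18319350, which that annotation puts upstream of Nhsl1, so it entered no gene sum. HA against IgG, it had 118 against 0 reads in mouse 1 and 117 against 0 in mouse 2, at least 13.6-fold and at least 41.2-fold with the floor of 3 counts. In the test of identical regions it was higher in HA in 2 of 2 mice (limma adjusted p = 6.7e-05; with 0 IgG reads the fitted size depends on the 0.5 added to the reads and is not given). The wild-type HA library held 2 reads there. In GENCODE M21 the region covers the first coding exon of 1 Nhsl1 transcript, 292 bases from 18318985 to 18319276 with 72.6% G and C, printed above. Among 20 regions off genes with at least 20 reads in each mouse, 1 in mouse 1 and 3 in mouse 2 reached 4-fold, and this was the only one to do so in both.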

How the results depend on the processing

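The planned edgeR quasi-likelihood and DESeq2 tests and TMM scaling were not run, as the read numbers lie in an attribute field and not in a column. The values, being whole counts, did not rule them out. In their place stood limma, planned as an alternative. The number of genes higher in HA was 19 to 21 under the scalings run without the replicate block, 29 with the block and 24 with the block and the pooled ratio, and ranged from 9 to 18 when 1 library was left out. The number of lower genes was 95 with the replicate block, 171 with the pooled ratio, 265 with both, 0 with the median ratio of the tested genes, with median-of-ratios size factors, with no minimum of reads, without chromosomes 12 and 15 and with the HA pair averaged, and 0 to 3 when 1 library was left out; the cause was not tested beyond the scale itself. With overlapping regions merged, 138 of 359 were higher and 48 lower. With regions inside the gene only, 12 genes were at 4-fold in both mice. Genes at 0.25-fold or less numbered 8 on the pooled scale, 3 with at least 10 reads, and 1 to 8 in a single mouse. Log2 differences that changed sign, none of them called, were Dync1h1 0.105 and 0.0901, Rims2 0.33 and 0.32 and Enpp2 0.32 and 0.30 with the median ratio of the tested genes and with size factors. On the pooled scale, with or without the replicate block, they were Nrxn3 -0.50, Kcnq3 -0.0136, Tnrc6b -0.59, Ago2 -0.55, Pum2 -0.31, Slc1a3 -0.50 and Bcl11b -0.30. With 1 library left out, the range was -0.11 to 1.87 for Dlgap3, -0.60 to 2.28 for Trio, -0.23 to 0.72 for Nrxn3, -2.55 to 1.13 for Scn8a, -0.48 to 1.96 for Kcnq3, -0.24 to 0.55 for Tnrc6b, -0.0344 to 0.55 for Slc1a3 and -0.26 to 0.14 for Enpp2; the lone library of a kind is then assumed to vary like the other kind. The alternatives without a trend, with the HA pair averaged, with both pooled ratio and block, without chromosomes 12 and 15, and on the pooled scale for identical regions were chosen after seeing the data. Unknown library depth limits every fold to the called regions.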

Other observations

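Genes listed in 1 mouse only had few high folds: 14 of 673 (2.08%) with at least 20 reads in mouse 1 and 3 of 166 (1.81%) in mouse 2 reached 4-fold. In mouse 1, Gm5125, Nipa2 and Gm17907 lie in the long regions of Nhsl2 and Cyfip1. Synm, an intermediate filament protein, held 275 HA and 3 IgG reads (31.7-fold, 10.7 to 155). Klf13, a transcription factor, held 127 and 9 (4.88-fold, 2.49 to 10.9). A further 8 rested on 1 or 2 IgG reads. In mouse 2, Adcy1, an adenylyl cyclase of the hippocampus, held 53 HA and 11 IgG reads (5.09-fold, 2.63 to 10.8). Dlgap4, a postsynaptic scaffold, held 57 and 13 (4.63-fold, 2.51 to 9.22) and Dynll2, a dynein light chain, 30 and 6 (5.28-fold, 2.16 to 15.5). With no region in the other mouse, none of these has a replicate check.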
